A study of Mus musculus with 52 samples.

Results

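Livers taken 12 hours after partial hepatectomy were compared with livers of untreated mice. The comparison used the 4 arrays titled as the 12-hour group and the 5 arrays titled as controls, 9 of the 52 arrays of a time course that ran from 1 hour to 3 months after the operation. All mice were labelled male C57Bl6/N, aged 8 to 12 weeks, on standard diet with free access to food. For 24-hour replicates 9, 10 and 11 the male label was doubted, as Xist read 9.15, 9.49 and 9.12. In the 9 arrays compared Xist lay between 3.19 and 3.69. In the 12-hour group about 2/3 of the liver had been removed, and the controls had no treatment. No sham-operated liver was analysed here, so the operation, anaesthesia, loss of tissue and time of day cannot be told apart. Whether each array is a separate animal is not in the labels. A p-value for a gene refers to the scatter of arrays within their groups, pooled over all 12 groups of the series. That scatter may be technical. It also takes in arrays unlike their own group, such as 4-week replicate 1 (correlation with its group -0.499) and 1-week replicate 4 (-0.282). Without the doubted arrays defined with the methods, control replicate 1 among them, 2926 genes instead of 1706 passed the test below against 6 hours. Against 48 hours these numbers were 3488 and 2143, and against control 5430 and 5445. A gene that did not pass is therefore not shown to be unchanged. The 4 arrays at 6 hours and the 4 at 48 hours served to show where the 12-hour livers differed from an earlier and a later time. RNA from whole liver was hybridized to Affymetrix Mouse Genome 430 2.0 arrays, and in such bulk samples fewer cells of a type and less RNA per cell cannot be told apart.

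Hepatocytes of the adult liver rarely divide, but after the loss of liver mass they leave rest almost together and re-enter the cell cycle. Cytokines from liver macrophages, above all interleukin-6 acting through Stat3, start the acute phase response and prime hepatocytes, and growth factors such as HGF and the ligands of the EGF receptor then carry them through G1. During that interval the remnant also has to meet the metabolic demand on the whole organ, and fat from adipose tissue accumulates in it for a time.

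Values are RMA signals on a log2 scale, and a change is the 12-hour mean minus the control mean with its standard error (SE) from limma, fitted to all 52 arrays. A gene was called when its adjusted p (Benjamini-Hochberg over 18195 genes) was under 0.05. A group mean within 1 log2 unit of the median of all probe sets, which was 3.95 at 12 hours and 4.04 in the controls, was treated as near background, and a fold against it is written as at least that size. By this test 5445 genes, or 29.9% of those tested, differed between 12-hour and control livers, of which 3257 (17.9% of all) were higher and 2188 (12.0%) lower. The higher genes made up 59.8% of the calls, 72.2% after centring each array on its median and 50.8% after a further quantile normalization. The median change of all genes was -0.04.

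Replicates correlated at 0.992 to 0.993 over all genes within the 12-hour group and at 0.978 to 0.994 within the controls. The groups also differed in technical measures. Hybridization controls read 10.3 ± 0.158 (SD, n = 4) at 12 hours and 10.8 ± 0.286 (n = 5) in the controls, added poly-A controls 6.08 ± 0.0690 and 6.88 ± 0.434, and the difference between 3' and 5' probe sets of Gapdh, a sign of RNA integrity, 0.766 ± 0.0894 and 1.61 ± 0.573. Each of the 3 differences reached the smallest p the exact two-sided permutation test allows, 0.0159. Control replicate 1 had the largest Gapdh difference, 2.56. Their part in the results was not tested beyond the fits with each measure as a covariate that are given below. At 6 hours the hybridization controls lay between 10.2 and 10.3 and the Gapdh difference between 0.916 and 1.11, closer to the 12-hour arrays.

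The genes with the largest rises included Lcn2, Saa2, Mt2, Bmper and Cidec, and those with the largest falls Hsd3b5, Upp2, Keg1 and Coq8a. Lcn2, an iron-siderophore binding protein of the acute phase, read 12.65, 12.74, 12.76 and 12.61 at 12 hours and 3.06, 6.39, 4.05, 3.88 and 2.88 in the controls, at least 399-fold higher (adjusted p = 2.42e-08). Bmper, a secreted modulator of BMP signalling, read 7.73, 8.62, 8.21 and 8.01 against 3.09, 3.07, 2.83, 3.21 and 2.68. Cidec, which enlarges lipid droplets, read 7.30, 7.54, 8.78 and 8.53 against 3.55, 3.34, 3.73, 3.85 and 3.33. For all 3 genes every 12-hour array lay above every control array, as it did for 19.5% of all genes. Arrays of the 2 groups did not overlap, in either direction, for 32.8% of genes.

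At the other end Hsd3b5, a steroid dehydrogenase of the male liver, read 6.47, 3.47, 3.32 and 3.82 at 12 hours and 10.92, 11.22, 11.06, 11.50 and 11.13 in the controls, a change of -6.90 ± 1.25. Its relatives Hsd3b2 and Hsd3b3 changed by -4.98 ± 0.79 and -3.89 ± 0.86. Upp2, a uridine phosphorylase, read 7.02, 4.25, 3.46 and 3.31 against 9.24, 9.39, 9.61, 9.37 and 11.07. For both Hsd3b5 and Upp2 the arrays of the groups did not overlap, as for 13.3% of all genes on the lower side, and 12-hour replicate 1 was less reduced than the other 3. Among the other lowest genes were Keg1 (-5.03), the coenzyme Q synthesis gene Coq8a (-4.47), the water channel gene Aqp8 (-4.03), the ectonucleotidase gene Enpp3 (-3.96), the mitochondrial carbonic anhydrase gene Car5a (-3.40) and the transporter gene Abca8a (-3.25). Among the other highest were the intestinal-type lectin gene Reg3b (4.42), the EGF family ligand Nrg4 (4.34), the copine gene Cpne8 (4.02) and the galactosyltransferase gene B3galt1 (3.93), all past the threshold.

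**Figure D1:**
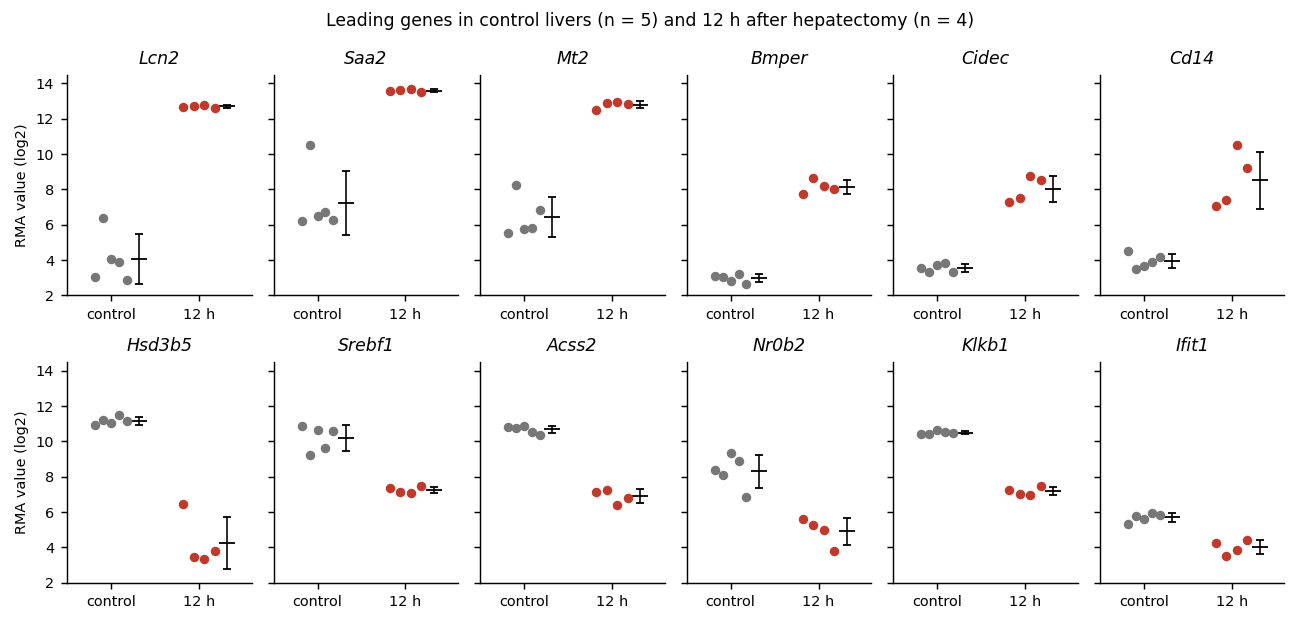
RMA values (log2, vertical axis) of 12 genes in each control array (grey, n = 5) and each 12-hour array (red, n = 4); bars give the mean and SD. The upper 6 genes lie higher and the lower 6 lie lower in every 12-hour array, and control replicate 2 is the highest control for Lcn2, Saa2 and Mt2.

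**Figure D2:**
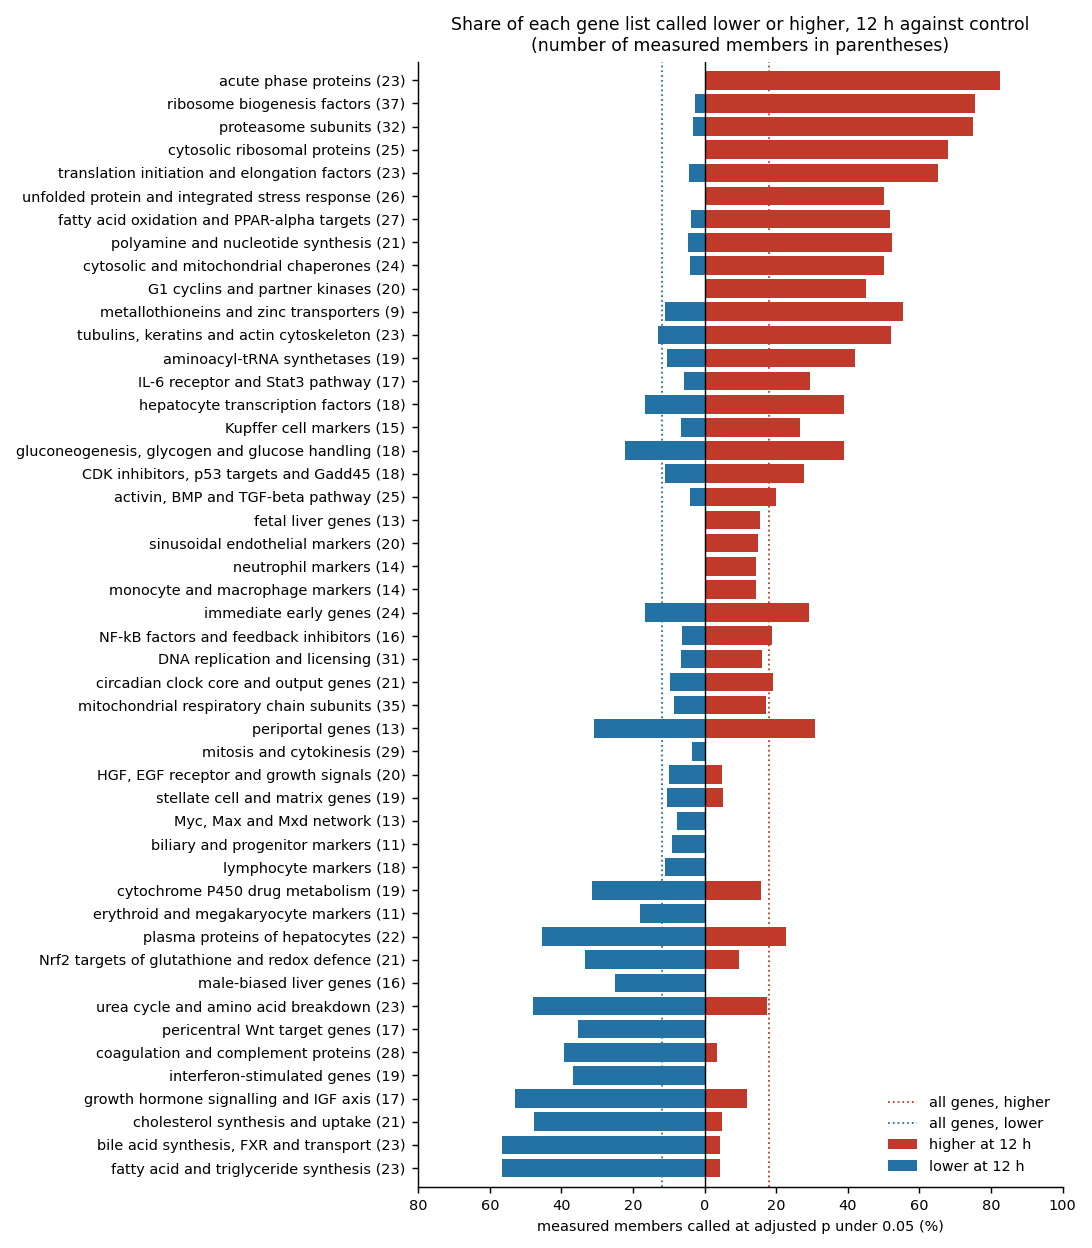
Share (%) of the measured members of 48 gene lists called higher (red, to the right) or lower (blue, to the left) at 12 hours than in controls; dotted lines mark the shares among all genes, 17.9% and 12.0%. Acute phase proteins, ribosome biogenesis and proteasome lists extend farthest to the right, and fatty acid synthesis and bile acid lists farthest to the left.

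Acute phase proteins, which hepatocytes secrete in response to cytokines, rose in 19 of 23 measured members and fell in 0 (limma; 19 rose and 0 fell at an unadjusted p under 0.05), with a median change of 1.19. The serum amyloid gene Saa2 read 13.58, 13.61, 13.68 and 13.51 at 12 hours and 6.20, 10.49, 6.51, 6.69 and 6.26 in the controls. Saa1 (5.21 ± 0.84), the orosomucoid gene Orm2 (4.56 ± 0.77), the protease inhibitor gene Serpina3n (4.37 ± 0.52), the metalloreductase gene Steap4 (3.04 ± 0.46) and the amyloid P component gene Apcs (2.87 ± 0.40) rose as well. The fibrinogen chain gene Fgb, already abundant in controls, rose by a smaller 0.79 ± 0.12. Ceruloplasmin (Cp, 0.07), hepcidin (Hamp, 0.05) and Saa4 (-0.26), which is made constitutively, did not pass the test.

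Among the controls replicate 2 had the highest level of 20 of the 23 acute phase genes, against 3475 of 18195 genes in all. Its mean over the list was 10.9, where the other 4 controls ranged from 9.55 to 10.1 and the 12-hour arrays from 12.1 to 12.3. Without it 19 members were called higher, and Saa1 and Saa2 changed by 6.05 and 7.18.

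Of the interleukin-6 receptor and Stat3 pathway 5 of 17 members (29.4%) rose and 1 (5.88%) fell, against 17.9% and 12.0% of all genes. The feedback inhibitor Socs3 read 9.96, 10.51, 9.43 and 9.98 at 12 hours and 7.91, 8.22, 6.00, 6.90 and 7.18 in the controls, with no overlap. The oncostatin M receptor gene Osmr rose by 2.81 ± 0.58 and the shared receptor subunit gene Il6st by 1.04 ± 0.21. Stat3 itself changed by 0.47 ± 0.24 (adjusted p = 0.14, and 0.0348 without control replicate 2), and the kinase gene Pim1 fell by 1.08 on the log2 scale (adjusted p = 0.0239), a call lost without any 1 of 12-hour replicates 1 and 4 and control replicate 1, adjusted p up to 0.0934. Of 16 NF-kB factors and their feedback inhibitors 3 rose, among them the inhibitor gene Nfkbie (1.43 ± 0.40), and 1 fell, Nfkb2 (-0.85 ± 0.18), shares close to those of all genes.

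Metallothioneins bind zinc and copper and are induced by metals, glucocorticoids and interleukin-6. Mt1 read 13.38, 13.52, 13.45 and 13.53 at 12 hours and 6.55, 10.28, 7.07, 6.88 and 8.46 in the controls, 49.2-fold higher, and Mt2 12.50, 12.86, 12.93 and 12.85 against 5.56, 8.25, 5.73, 5.82 and 6.86, 81.0-fold higher (adjusted p = 1.66e-12 for both). Without control replicate 2 these were 75.0-fold and 111-fold. Control replicate 2 was the highest control for both genes, still below every 12-hour array. The zinc importer gene Slc39a14 rose by 1.39 ± 0.26 and the zinc exporter gene Slc30a1 by 0.86 ± 0.26. In all 5 of the 9 listed genes rose and 1, the metal-sensing factor gene Mtf1, fell (-0.51 ± 0.15), but the mean of the probe sets of Mtf1 gave 0.18.

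The promoters of Mt1 and Mt2 are shown because these genes moved most within the zinc list and because the metal-sensing factor is known to bind the short element there. The windows run from 250 bases before to 50 after the annotated start (RefSeq, GRCm38.p6), on the + strand. Capitals mark matches on either strand to the metal response core, searched as TGCGCNC and TGCACNC, whose matches do not overlap in these windows. Mt1 at chr8:94178839-94179138 held 3 matches and Mt2 at chr8:94172368-94172667 held 4.
Mt1: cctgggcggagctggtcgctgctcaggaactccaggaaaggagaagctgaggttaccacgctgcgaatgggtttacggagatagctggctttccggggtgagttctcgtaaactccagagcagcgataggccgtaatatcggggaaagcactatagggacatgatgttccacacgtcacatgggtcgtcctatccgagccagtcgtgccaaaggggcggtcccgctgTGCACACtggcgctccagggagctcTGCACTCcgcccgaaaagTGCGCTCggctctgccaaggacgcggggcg
Mt2: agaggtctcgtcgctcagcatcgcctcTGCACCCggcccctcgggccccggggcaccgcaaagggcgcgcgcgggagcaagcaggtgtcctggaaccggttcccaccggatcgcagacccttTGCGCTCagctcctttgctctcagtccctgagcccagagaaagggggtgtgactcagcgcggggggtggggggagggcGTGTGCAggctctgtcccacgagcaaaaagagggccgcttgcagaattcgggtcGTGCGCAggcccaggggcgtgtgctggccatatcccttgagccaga
At least 1 of these forms was present in 25.7% of all 32851 promoter windows of this length and in 5 of the 7 windows of the zinc list. A match describes the letters and shows no binding.

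Immediate early genes, transcription factor genes and regulators that respond within minutes of a stimulus, were divided at 12 hours. Of 24 members 7 (29.2%) were higher and 4 (16.7%) lower than in controls, against 17.9% and 12.0% of all genes. Cebpd read 8.85, 8.87, 8.86 and 8.87 against 4.89, 6.21, 5.00, 6.30 and 5.52, the tightest 12-hour group among the genes shown. Ier3 (2.85 ± 0.71), Klf6 (2.06 ± 0.42) and Cebpb (0.90 ± 0.22) were also higher. The stress gene Gadd45a read 3.86, 3.44, 3.57 and 3.84 at 12 hours and 5.44, 5.94, 6.35, 5.23 and 6.47 in the controls, and Ier2 (-1.79 ± 0.30), the phosphatase gene Dusp1 (-1.80 ± 0.37) and Zfp36 (-1.33 ± 0.33), whose product destabilises cytokine mRNAs, were lower too. Egr1 and Fos, the classical members, changed by -1.32 ± 0.58 and -1.29 ± 0.78 and did not pass the test, although without control replicate 5, whose Egr1 value of 8.77 lay below those of the other controls, Egr1 reached -1.70 (adjusted p = 0.0269). Against 6 hours 9 members were lower at 12 hours (1.98% of all genes were), among them Btg2 (-2.56 ± 0.58) and Gadd45a (-3.00 ± 0.53).

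Part of the interferon-stimulated genes, an antiviral programme, fell. Of 19 measured members 7 fell and 0 rose (limma; at an unadjusted p under 0.05 these were 10 and 0), 18 had a negative change, and the median was -0.54. Ifit1, which binds foreign RNA, read 4.23, 3.53, 3.85 and 4.41 at 12 hours and 5.33, 5.75, 5.59, 5.97 and 5.86 in the controls. Rsad2, the antiviral enzyme viperin, read 5.27, 5.22, 5.59 and 5.98 against 6.61, 6.65, 6.64, 6.76 and 6.50. In both genes every 12-hour array was below every control, and the call of Rsad2 was lost without either of 12-hour replicates 1 and 2, adjusted p up to 0.0671. The regulators Irf7 (-1.08 ± 0.30) and Irf1 (-0.80 ± 0.25) and Oasl1 (-0.97 ± 0.30) also fell, while Irf9 stood at 0.04. The mean over the list ranged from 5.15 to 5.39 at 12 hours and from 5.78 to 6.00 in the controls. The number that fell was 4 without 12-hour replicate 2, 13 with array weights, 9 without the 7 doubted arrays, and 1 with the poly-A controls as a covariate, where Ifit1 had an adjusted p of 0.118.

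The promoters of Ifit1 and Rsad2 are shown because they carry the motif through which interferon signalling is known to act. Capitals mark matches on either strand to TTTC, any 2 bases and TTTC, a core of the interferon-stimulated response element. Ifit1 at chr19:34640639-34640938 (+ strand) held 2 matches and Rsad2 at chr12:26456403-26456702 (- strand) held 1.
Ifit1: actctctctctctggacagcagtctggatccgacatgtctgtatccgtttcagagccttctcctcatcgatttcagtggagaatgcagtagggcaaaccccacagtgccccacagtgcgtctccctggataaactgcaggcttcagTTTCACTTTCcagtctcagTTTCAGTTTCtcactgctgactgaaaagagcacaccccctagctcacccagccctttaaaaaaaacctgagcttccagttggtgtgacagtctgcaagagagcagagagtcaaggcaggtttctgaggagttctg
Rsad2: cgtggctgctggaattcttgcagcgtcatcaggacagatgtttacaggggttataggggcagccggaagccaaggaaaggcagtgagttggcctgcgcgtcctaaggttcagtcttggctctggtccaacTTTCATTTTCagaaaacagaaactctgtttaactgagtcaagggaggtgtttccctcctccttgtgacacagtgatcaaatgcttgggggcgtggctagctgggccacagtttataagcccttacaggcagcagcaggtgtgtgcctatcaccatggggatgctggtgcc
This core was in 3.44% of all promoter windows and in 8 of the 19 windows that 15 of the listed interferon genes had. Of all 19 measured members of the list 7 fell. Of the genes with those 8 windows 3 passed the test, Ifit1, Rsad2 and Gbp3 (-0.90), the last losing its call without any 1 of 12-hour replicates 1, 2, 3 and 4 and control replicates 2, 3, 4 and 5, adjusted p up to 0.1.

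Most measured genes for making ribosomes rose. Ribosome biogenesis factors, which process and assemble ribosomal RNA in the nucleolus, rose in 28 of 37 members and fell in 1, with a median change of 0.79. Nop58, a core protein of the small nucleolar RNPs, read 8.58, 8.79, 8.66 and 8.67 at 12 hours and 6.28, 7.19, 6.66, 7.06 and 5.90 in the controls. Rrp12 read 5.54, 5.82, 5.95 and 5.62 against 2.91, 4.43, 3.90, 4.14 and 3.55. Neither gene's arrays overlapped between the groups. Ltv1 (1.77 ± 0.22) and Tsr1 (1.65 ± 0.27), which mature the small subunit, and Npm1 (0.94 ± 0.20), nucleophosmin, rose too. The 1 gene that fell was Ubtf (-0.49 ± 0.11), the RNA polymerase I factor, but the mean of its probe sets gave 0.53 (adjusted p = 0.0116), the other direction. With the hybridization controls as a covariate 19 members rose.

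Cytosolic ribosomal protein genes rose in 17 of 25 members and fell in 0 (limma; 19 and 0 at an unadjusted p under 0.05), with a median of 0.54. Rps9 (1.42 ± 0.19) and Rplp0 (1.05 ± 0.18) changed most among those named. Many ribosomal protein genes have processed pseudogenes with near-identical sequence, so their probe sets can read more than 1 locus. Of 23 translation factors 15 rose and 1 fell. Eif6, which keeps new large subunits from joining too early, read 9.64, 9.69, 9.96 and 9.75 at 12 hours and 5.89, 7.68, 7.32, 7.73 and 7.10 in the controls, 6.14-fold higher, and 4.94-fold without control replicate 1. The cap-binding protein gene Eif4e rose by 1.70 ± 0.22 and Eif1a by 1.53 ± 0.34. Eif4a3 fell by a small 0.36 on the log2 scale near background (adjusted p = 0.0399), a call lost without any 1 of 12-hour replicates 2 and 3 and control replicates 1, 4 and 5, adjusted p up to 0.16. Of 19 aminoacyl-tRNA synthetase genes 8 rose, led by Hars (1.12 ± 0.16), and 2 fell, a number that was 0 without 12-hour replicate 1.

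Polyamines and nucleotides are needed for RNA and DNA synthesis. Of 21 genes for their production 11 rose and 1 fell. Odc1, the rate-limiting enzyme of polyamine synthesis, read 10.45, 10.49, 10.47 and 10.04 at 12 hours and 7.32, 8.63, 8.29, 8.67 and 8.48 in the controls. Spermidine synthase (Srm) rose by 1.78 ± 0.39 and CTP synthase (Ctps) by 1.88 ± 0.29, and Prps2, of nucleotide precursor synthesis, was the gene that fell (-0.73 ± 0.27), a call lost without any 1 of 12-hour replicates 2, 3 and 4 and control replicates 4 and 5, adjusted p up to 0.0705.

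Proteasome subunit genes rose in 24 of 32 members and fell in 1, Psmb3 (-0.65 ± 0.14), with a median of 0.49. Psmc1, an ATPase of the regulatory particle, read 9.20, 9.34, 9.03 and 9.16 at 12 hours and 7.04, 8.62, 8.32, 8.64 and 8.22 in the controls, and Psmd7, a scaffold subunit of the same particle, changed by 0.89 ± 0.20. The groups did not overlap for Psmc1, but control replicate 1 was far below the other 4. That array was the lowest control for 24 of the 32 proteasome genes, 20 of the 37 ribosome biogenesis genes and 18 of the 26 stress response genes, against 6010 of 18195 genes in all. Without control replicate 1 the called numbers were 19, 26 and 11, and Psmc1 changed by 0.73. With the Gapdh difference as a covariate 14 proteasome genes rose.

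Of 26 genes of the unfolded protein and integrated stress responses, which enlarge the folding capacity of the endoplasmic reticulum, 13 rose and 0 fell (limma; 13 and 2 at an unadjusted p under 0.05), with a median of 0.57. Creld2, a folding factor of the endoplasmic reticulum, read 10.71, 10.86, 11.003 and 11.09 at 12 hours and 6.67, 9.42, 8.69, 9.03 and 9.07 in the controls. The chaperone gene Hspa5 (BiP) read 12.59, 12.72, 12.71 and 12.66 against 11.05, 12.19, 11.96, 12.33 and 11.82, a rise of 0.80 that became 0.59 (adjusted p = 0.0517) without control replicate 1. All 12-hour arrays exceeded all controls in both genes. Dnajc3 (1.14 ± 0.23), Dnajb9 (1.62 ± 0.40), Manf (1.48 ± 0.34), the disulfide isomerase gene Pdia6 (0.99 ± 0.21) and the asparagine synthetase gene Asns (2.00 ± 0.52) rose. The stress sensor gene Ern1 (-0.48) did not pass the test against control but was higher at 12 hours than at 6 hours, by 2.00 ± 0.24 (adjusted p = 1.86e-07). Compared with 48 hours 12 members were higher at 12 hours (4.62% of all genes were), Creld2 by 2.44 ± 0.65.

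The promoters of Creld2 and Dnajc3 are shown because both hold the whole endoplasmic reticulum stress response element, searched on both strands as CCAAT, any 9 bases and CCACG and marked in capitals. Creld2 lies at chr15:88819396-88819695 and Dnajc3 at chr14:118937682-118937981, both on the + strand, and each held 1 match.
Creld2: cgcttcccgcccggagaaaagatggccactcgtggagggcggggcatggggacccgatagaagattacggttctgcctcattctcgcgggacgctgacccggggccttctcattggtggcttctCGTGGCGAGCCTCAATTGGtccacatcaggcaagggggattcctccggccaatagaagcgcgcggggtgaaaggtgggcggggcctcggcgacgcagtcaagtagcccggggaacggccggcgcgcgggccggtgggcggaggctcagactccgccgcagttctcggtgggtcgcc
Dnajc3: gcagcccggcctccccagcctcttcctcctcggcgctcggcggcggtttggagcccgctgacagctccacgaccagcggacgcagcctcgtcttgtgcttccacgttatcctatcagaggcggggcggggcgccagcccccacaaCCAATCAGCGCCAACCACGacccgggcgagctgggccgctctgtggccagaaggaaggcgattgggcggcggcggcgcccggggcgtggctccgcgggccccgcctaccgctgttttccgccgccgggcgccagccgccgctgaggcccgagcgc
The element was in 39 of 32851 promoter windows, 0.119%, and in 8 of the 23 windows of the listed stress genes, those of Hspa5, Calr, Hsp90b1, Canx, Pdia6, Dnajc3, Creld2 and Syvn1. Of these 8 genes 5 rose, Canx by 0.57 with a call lost without any 1 of 12-hour replicates 1, 2 and 3 and control replicate 1, adjusted p up to 0.221, while Calr (0.25), Hsp90b1 (0.41) and Syvn1 (0.43) did not pass the test.

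Cytosolic and mitochondrial chaperone genes rose in 12 of 24 members, among them Hsp90aa1 (1.03 ± 0.22) and Dnajb4 (1.06 ± 0.19), and the small heat shock protein gene Hspb1 fell (-0.88 ± 0.32), a call lost without any 1 of 12-hour replicates 1, 2 and 4 and control replicates 1 and 5, adjusted p up to 0.0765. Control replicate 1 was the lowest control for 20 of the 24, against 6010 of 18195 genes in all, and without it 11 rose. With the Gapdh difference as a covariate 8 rose, and with the hybridization controls 9. The list mean ranged from 9.36 to 9.43 at 12 hours and from 8.43 to 9.37 in the controls. The glutathione and redox genes controlled by Nrf2 went the other way, with 7 of 21 lower and 2 higher and a median of -0.65. Gclc, the catalytic subunit of glutathione synthesis, changed by -1.79 ± 0.36 and catalase (Cat) by -0.96 ± 0.23, whereas sulfiredoxin (Srxn1) changed by 1.17 ± 0.30. With the hybridization controls as a covariate 0 members were called higher.

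**Figure D3:**
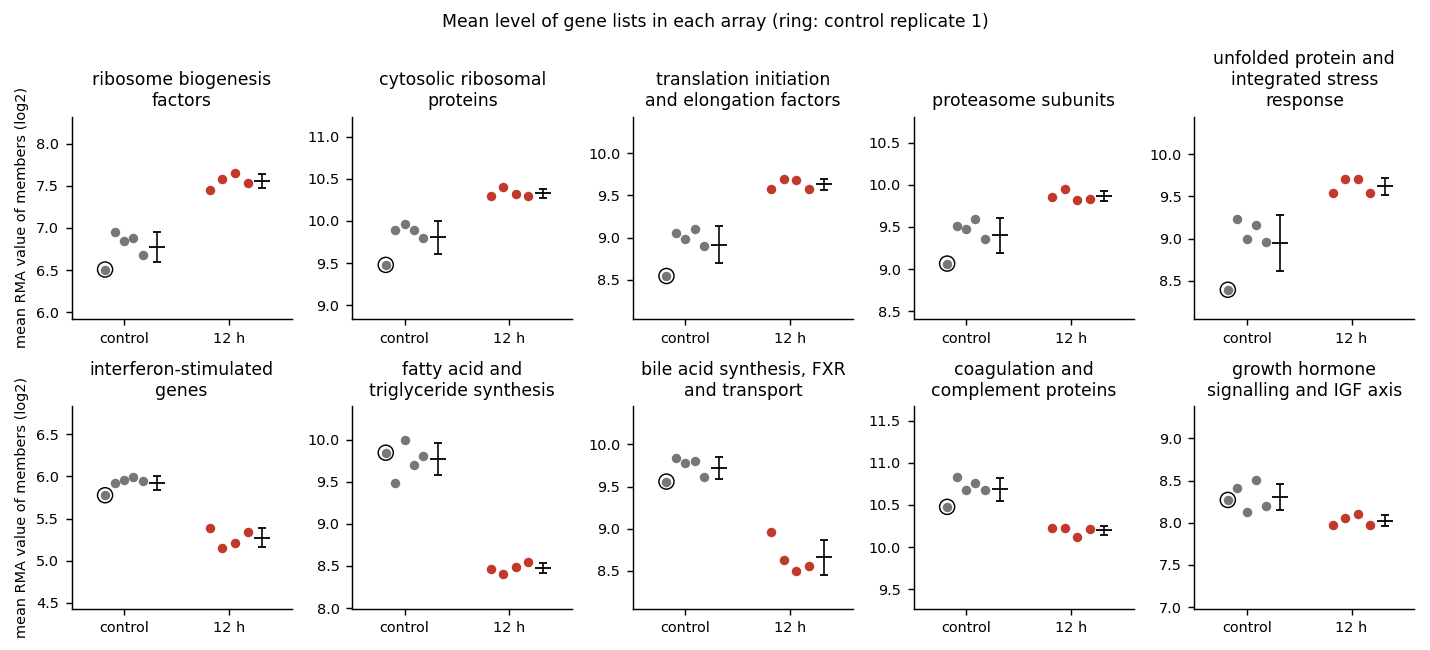
Mean RMA value (log2, vertical axis; each panel spans 2.4 units) over the measured members of 10 gene lists in each control array (grey, n = 5) and 12-hour array (red, n = 4), with mean and SD. The upper 5 lists are higher and the lower 5 lower at 12 hours without overlap, and control replicate 1 (ring) is the lowest control in each upper panel.

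Of 20 genes of HGF, EGF receptor and related signals 1 rose and 2 fell, and without control replicate 2 4 fell. Over all genes the shares were 17.9% higher and 12.0% lower. Hgf read 4.71, 4.56, 4.61 and 4.55 at 12 hours and 4.22, 4.24, 4.04, 3.88 and 4.05 in the controls, a rise of 0.52 ± 0.20 near background that was lost without any 1 of 12-hour replicates 1, 2, 3 and 4 and control replicates 3, 4 and 5, adjusted p up to 0.0947. Its activator gene Hgfac fell (-1.23 ± 0.26), as did the FGF receptor gene Fgfr4 (-0.78 ± 0.17, adjusted p = 0.108 from the mean of its probe sets). Of 25 genes of the activin, BMP and TGF-beta pathway 5 rose, Bmper first, with the Smad repressor gene Skil (1.76 ± 0.37) and the activin E gene Inhbe (1.43 ± 0.46) among them, and 1, the receptor gene Acvr2b, fell (-0.62 ± 0.21), a call lost without any 1 of 12-hour replicate 3 and control replicates 4 and 5, adjusted p up to 0.0938. The share that rose, 20%, was close to that of all genes, 4% fell, and the median change of this list was -0.06. Myc was 0.74 ± 0.50 above control and did not pass the test (adjusted p = 0.274), and in its network of 13 genes 1, Mlxipl, fell and 0 rose (limma; 2 and 0 at an unadjusted p under 0.05).

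Part of the G1 genes rose. Of 20 G1 cyclins, kinases and E2F factors 9 rose and 0 fell (limma; 12 and 0 at an unadjusted p under 0.05), with a median of 0.56. Ccnd1, cyclin D1, read 9.46, 8.08, 7.72 and 8.06 at 12 hours and 6.17, 6.65, 6.79, 6.49 and 7.12 in the controls. Its partner kinase Cdk4 read 7.14, 7.005, 7.11 and 6.95 against 5.68, 6.06, 6.02, 6.25 and 6.50. Both groups were fully separated, and replicate 1 was the highest 12-hour array. The call of Ccnd1 was lost without either of 12-hour replicate 1 and control replicate 1, adjusted p up to 0.126. Cdk7 (1.63 ± 0.26) and its partner cyclin gene Ccnh (0.74 ± 0.14) and the E2F factor genes E2f3 (0.70 ± 0.18) and E2f6 (0.68 ± 0.21) rose, though another probe set of Cdk7 was called lower and the mean of its probe sets gave 0.21 (adjusted p = 0.264). With the hybridization controls as a covariate 2 members were called, without control replicate 1 6, and over all alternatives from 2 to 13. Compared with 6 hours 5 were higher (7.39% of all genes were), with Cdk4 at 0.93 ± 0.22 and Cdk6 at 1.39 ± 0.22.

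The inhibitor Cdkn1a, p21, read 6.74, 8.11, 9.14 and 8.67 at 12 hours and 5.66, 5.20, 4.81, 5.34 and 4.54 in the controls, 8.31-fold higher, and 11.5-fold without 12-hour replicate 1. At 6 hours it read 10.23, 9.70, 10.09 and 10.02, above every 12-hour array, and the difference of -1.84 ± 0.61 passed the test (adjusted p = 0.0474), a call lost without any 1 of 12-hour replicates 1, 2 and 4 and 6-hour replicates 1, 2, 3 and 4, adjusted p up to 0.215. Here 12-hour replicate 1 was the lowest of its group. Of the 18 CDK inhibitor, p53 target and Gadd45 genes 5 (27.8%) rose and 2 (11.1%) fell, against 17.9% and 12.0% of all genes. The number that rose was 3 without 12-hour replicate 2. Beside Cdkn1a the 5 were Zmat3 (1.03 ± 0.19), Gadd45g (2.10 ± 0.75, lost without any 1 of 12-hour replicates 2, 3 and 4 and control replicates 3 and 5, adjusted p up to 0.137), Gadd45b (1.12 ± 0.37, lost without either of 12-hour replicate 4 and control replicate 1, adjusted p up to 0.106) and the p53 ligase gene Mdm2 (0.50 ± 0.17, lost without either of 12-hour replicate 2 and control replicate 5, adjusted p up to 0.123). The genes that fell were Gadd45a and the p53 target Bbc3 (-0.88 ± 0.16).

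Of 31 DNA replication and licensing genes 5 rose and 2 fell. These shares of 16.1% and 6.45% were below the 17.9% and 12.0% among all genes. Over all alternatives listed with the methods the number that rose ran from 0 to 13, the highest of these from a fit of the compared groups alone. Cdt1, which loads the MCM helicase, read 7.79, 6.36, 6.15 and 6.08 at 12 hours, 4.84, 5.26, 4.75, 4.73 and 5.64 in the controls and 3.98, 3.87, 4.03 and 4.17 at 6 hours. The call of Cdt1 was lost without 12-hour replicate 1, adjusted p = 0.122. Rpa2, a subunit of the single-strand binding protein (1.30 ± 0.36), Orc6, of the origin recognition complex (1.26 ± 0.29), and the clamp loader genes Rfc4 (1.38 ± 0.47) and Rfc3 (0.88 ± 0.34) also rose. The call of Rfc4 was lost without any 1 of 12-hour replicates 1 and 2 and control replicate 1, adjusted p up to 0.1, and that of Rfc3 without any 1 of 12-hour replicates 1, 2 and 4 and control replicates 1, 2 and 3, adjusted p up to 0.169. Thymidine kinase (Tk1, -2.14 ± 0.51) and Mcm10 (-1.68 ± 0.63) fell, the latter losing its call without any 1 of 12-hour replicates 2, 3 and 4 and control replicates 1, 4 and 5, adjusted p up to 0.153. Mcm5 read 7.24, 5.66, 4.74 and 4.84 against 4.34, 4.63, 4.52, 4.92 and 4.05 and did not pass the test. Replicate 1 was the highest 12-hour array for 29 of the 31 genes, against 4014 of 18195 genes in all, with a list mean of 5.85 where the other 3 ranged from 5.10 to 5.29. Without it 2 members rose, and with the hybridization controls as a covariate 0. Against 6 hours 4 were higher (7.39% of all genes were), Cdt1 by 2.58 ± 0.55, and against 48 hours 25 were lower (7.16% of all genes were).

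Of 29 mitosis and cytokinesis genes 0 rose and 1, Foxm1 (-0.40, lost without any 1 of 12-hour replicates 1 and 2 and control replicates 1, 4 and 5, adjusted p up to 0.162), fell against control (limma; 0 and 1 at an unadjusted p under 0.05). Mki67 read 3.12, 3.12, 3.12 and 3.40 at 12 hours, 3.42, 3.61, 3.37, 3.15 and 3.18 in the controls and 9.40, 9.91, 9.81 and 7.57 at 48 hours. Both the 12-hour and the control values were at background level, and every 48-hour value was above them. In all 27 members were lower at 12 than at 48 hours, with a median of -3.72, among them cyclin B2 (Ccnb2, -5.56 ± 0.76), Cdk1 (-5.00 ± 0.69), Cdc20 (-5.83 ± 0.87) and survivin (Birc5, -5.71 ± 0.76).

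**Figure D4:**
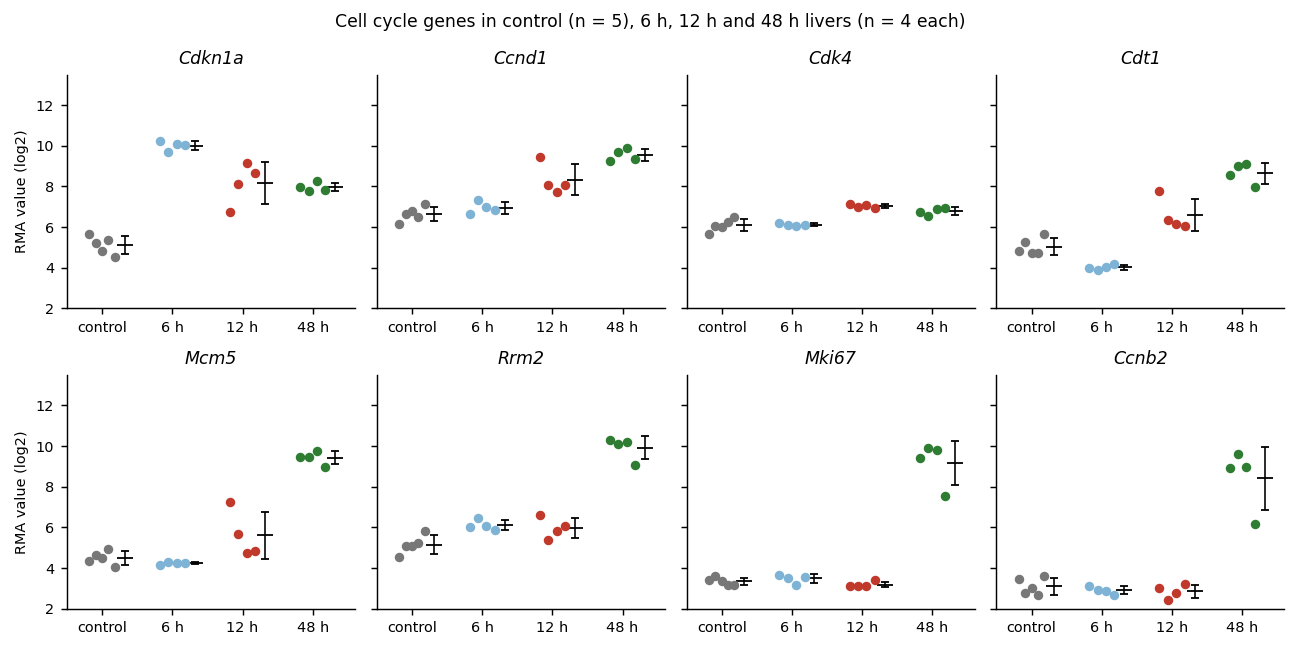
RMA values (log2, vertical axis) of 8 cell cycle genes in control (grey, n = 5), 6-hour (light blue), 12-hour (red) and 48-hour arrays (green, n = 4 each), with mean and SD. The first 12-hour point, replicate 1, is lowest for Cdkn1a and highest for Ccnd1, Cdt1 and Mcm5, and Mki67 and Ccnb2 are high at 48 hours alone among the groups drawn.

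Lipid metabolism divided into synthesis, which fell, and oxidation, which rose. Of 23 genes of fatty acid and triglyceride synthesis 13 fell and 1 rose, with a median of -1.11. The lipogenic master regulator Srebf1 read 7.38, 7.11, 7.10 and 7.45 at 12 hours and 10.88, 9.21, 10.67, 9.62 and 10.58 in the controls. Fatty acid synthase (Fasn) read 7.56, 7.27, 7.98 and 7.87 against 10.75, 8.93, 10.67, 9.48 and 10.29. Acss2, which makes acetyl-CoA from acetate, read 7.13, 7.27, 6.43 and 6.79 against 10.84, 10.73, 10.85, 10.55 and 10.39. The groups did not overlap in any of the 3, and the control arrays of Srebf1 and Fasn spread over more than 1.5 log2 units. Thrsp (-3.48 ± 0.98), the glucose-sensing factor Mlxipl (-2.63 ± 0.35), ATP-citrate lyase (Acly, -2.30 ± 0.43) fell too, while Scd1 changed by -0.38 ± 0.50 and did not pass. The 1 gene that rose was Lpin1 (1.70 ± 0.45), a phosphatidate phosphatase. Thrsp was still high at 6 hours, at 11.31, 10.88, 11.55 and 11.37, and the difference of -3.64 ± 1.04 from 6 hours passed the test (adjusted p = 0.017), a call lost without 12-hour replicate 3, adjusted p = 0.0581.

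Cholesterol synthesis genes fell in 10 of 21 members and rose in 1, with a median of -0.74. Insig1, which holds the SREBP complex in the endoplasmic reticulum, read 9.80, 9.51, 8.75 and 8.34 at 12 hours and 11.57, 10.47, 11.32, 11.01 and 11.07 in the controls. Hmgcs1 (-1.73 ± 0.34), Nsdhl (-1.68 ± 0.37), squalene synthase (Fdft1, -1.40 ± 0.34) and Sc5d (-1.38 ± 0.38) fell. The gene that rose was Insig2 (1.51 ± 0.39). Against 48 hours 16 of these 21 genes were called lower at 12 hours (7.16% of all genes were) and 1 was called higher.

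Of 27 fatty acid oxidation genes and PPAR-alpha targets 14 rose and 1 fell, Hadh (-0.95 ± 0.26, adjusted p = 0.0622 from the mean of its probe sets), with a median of 0.83. Pdk4, which diverts pyruvate from oxidation, read 6.56, 8.93, 10.68 and 8.48 at 12 hours and 6.44, 5.07, 6.12, 4.46 and 3.34 in the controls. Plin2, the main lipid droplet coat protein of hepatocytes, read 12.79, 12.76, 13.03 and 13.05 against 10.47, 11.04, 10.95, 11.002 and 10.65. Plin2 was tight in both groups, whereas the lowest 12-hour value of Pdk4, replicate 1, lay just above the highest control. Cyp4a14 (3.03 ± 0.78), Angptl4 (2.55 ± 0.41), Acot2 (2.18 ± 0.47) and the carnitine acyltransferase gene Cpt1a (0.83 ± 0.18) rose. Ppara itself stood at -0.05, and the hormone gene Fgf21 at 1.46 ± 0.59 (adjusted p = 0.0583). Cidec and Plin2 were also higher than at 48 hours, by 4.46 ± 0.73 and 1.91 ± 0.30. Fabp4, the fatty acid-binding protein of adipocytes and macrophages, read 10.10, 9.85, 10.12 and 10.25 at 12 hours and 4.63, 5.58, 6.29, 5.83 and 6.26 in the controls.

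**Figure D5:**
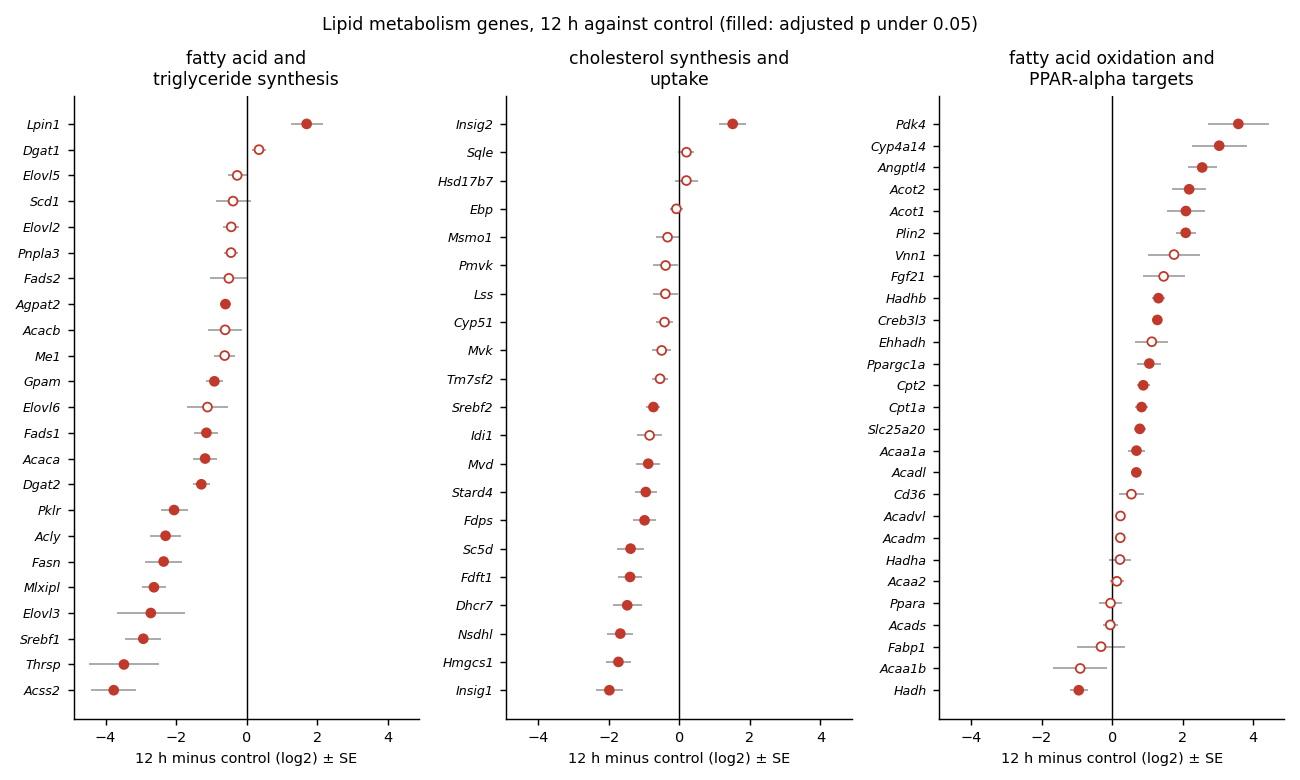
Change at 12 hours against control (log2, horizontal axis, with SE) of each measured gene of fatty acid synthesis, cholesterol synthesis and fatty acid oxidation; filled points passed the test. Lpin1 and Insig2 are the filled points to the right in the left and middle panels, and Hadh is the filled point to the left in the right panel.

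Glucose metabolism genes changed in both directions. Igfbp1, an insulin-repressed binding protein of IGFs, read 12.84, 12.97, 13.13 and 12.75 at 12 hours and 11.22, 11.16, 8.44, 11.19 and 7.86 in the controls, which were split between about 8 and 11. The gluconeogenic genes Fbp1 (0.87 ± 0.16) and Pck1 (0.53 ± 0.14) and the glycolytic regulator Pfkfb3 (2.16 ± 0.39) were among the 7 of 18 genes that rose. Among the 4 that fell, Ppp1r3c, which targets a phosphatase to glycogen, read 5.31, 5.55, 5.52 and 5.78 against 8.01, 9.42, 9.79, 8.29 and 7.24. The groups did not overlap for either gene. Glycogen phosphorylase (Pygl, -1.47 ± 0.36) and the insulin receptor substrate gene Irs1 (-1.96 ± 0.37) fell as well.

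Amino acid breakdown and urea cycle genes fell in 11 of 23 members and rose in 4, with a median of -0.61. Ass1, argininosuccinate synthase, read 6.10, 5.63, 5.37 and 5.68 at 12 hours and 9.78, 7.22, 8.46, 7.50 and 6.16 in the controls, with the lowest control just above the highest 12-hour array. Prodh (-2.65 ± 0.43), Cth (-1.72 ± 0.28) and Cbs (-1.69 ± 0.24), of proline and sulfur amino acid breakdown, fell, and Aass, of lysine breakdown, rose (1.87 ± 0.22). Cps1, the entry enzyme of the cycle, was at -0.01 ± 0.12 and did not pass the test. Respiratory chain subunit genes had a median of 0.05, with 6 of 35 higher and 3 lower. These shares were 17.1% and 8.57%, against 17.9% and 12.0% among all genes. The number higher was 3 without 12-hour replicate 2 or control replicate 1, and 0 with the hybridization controls as a covariate. The number lower was 0 without 12-hour replicate 3 or control replicate 5, and at most 2 with any single array left out.

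Bile acid synthesis and transport genes fell in 13 of 23 members and rose in 1, with a median of -0.90. Nr0b2 (SHP), the repressor induced by the bile acid receptor, read 5.60, 5.25, 4.98 and 3.80 at 12 hours and 8.37, 8.09, 9.32, 8.89 and 6.87 in the controls. The canalicular bile salt pump gene Abcb11 read 8.34, 8.84, 7.94 and 8.31 against 10.83, 10.89, 10.80, 10.84 and 10.55. Akr1d1, a reductase of the synthesis pathway, read 6.86, 6.73, 6.13 and 6.13 against 9.37, 9.31, 9.45, 9.36 and 9.44. All 3 were fully separated between the groups. Cyp8b1, of cholic acid synthesis (-2.60 ± 0.89, lost without 12-hour replicate 2, adjusted p = 0.0645), the uptake carrier gene Slc10a1 (-1.27 ± 0.36) and the FGF15 co-receptor gene Klb (-1.27 ± 0.36) fell, and the conjugating enzyme gene Baat rose by 0.48 ± 0.14.

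Cyp7a1, which catalyses the limiting step from cholesterol to bile acids, was the least uniform of these genes. It read 9.94, 6.63, 5.57 and 6.87 at 12 hours, 9.44, 10.33, 9.82, 9.69 and 10.55 in the controls and 3.38, 3.51, 4.30 and 4.28 at 6 hours. The 12-hour replicate 1 lay within the control range and the other 3 between the control and the 6-hour values. The difference from control was -2.71 ± 1.04 (adjusted p = 0.0435), a call lost without any 1 of 12-hour replicates 2, 3 and 4 and the 5 controls, adjusted p up to 0.163, while without 12-hour replicate 1 it was -3.61 (adjusted p = 0.0111). Against 6 hours it was 3.38 ± 1.10 higher (adjusted p = 0.0416), a call lost without any 1 of 12-hour replicates 1, 2 and 4 and 6-hour replicates 1, 2, 3 and 4, adjusted p up to 0.205. Replicate 1 was the highest 12-hour array for 15 of the 23 genes of the list.

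Of 19 cytochrome P450 genes of drug metabolism and their receptors 6 fell and 3 rose, with a median of -0.57. The share that fell was 31.6% and the share that rose 15.8%, against 12.0% and 17.9% of all genes. Cyp3a25 (-1.62 ± 0.29), Cyp2d22 (-1.09 ± 0.18) and Cyp2c38 (-1.35 ± 0.35) fell, and Cyp3a13 (1.46 ± 0.33) and Nr1i3, the receptor CAR (0.86 ± 0.27), rose. Cyp2b10, a target of that receptor, rose by 2.03 ± 0.75, a call lost without any 1 of 12-hour replicates 3 and 4 and control replicates 1, 3 and 5, adjusted p up to 0.101. Without control replicate 1 and 6 arrays of other times that were doubted for their RNA, their labels or their low likeness to their group, 11 P450 genes fell.

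Genes that define the hepatocyte did not move together. Of 18 hepatocyte transcription factors 7 (38.9%) rose and 3 (16.7%) fell, against 17.9% and 12.0% of all genes. Cebpa, which maintains differentiation, read 8.15, 7.85, 7.98 and 7.69 at 12 hours and 10.20, 9.59, 10.01, 10.06 and 10.24 in the controls. Foxa2 read 6.36, 6.94, 6.70 and 6.68 against 8.03, 7.67, 7.87, 8.88 and 8.11, also without overlap. Prox1 rose (1.90 ± 0.30), and Hnf4a was at -0.19 ± 0.11. Albumin (Alb) read 13.91, 13.85, 13.92 and 13.95 at 12 hours and 13.93, 13.98, 13.96, 14.00 and 13.99 in the controls, at the top of the array's range, and did not pass the test. Of 22 plasma protein genes 10 fell and 5 rose, with Serpina6, the corticosteroid-binding globulin, at -2.77 ± 0.89, the fetuin gene Fetub at -0.72 ± 0.18 and apolipoprotein A-IV (Apoa4) at 2.86 ± 0.34.

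Coagulation and complement genes fell in 11 of 28 members and rose in 1, with a median of -0.33. Klkb1, plasma prekallikrein, read 7.27, 7.04, 6.98 and 7.47 at 12 hours and 10.39, 10.44, 10.63, 10.52 and 10.45 in the controls. Its control values lay within 0.3 log2 units and the 12-hour values were more than 2.9 below them. Heparin cofactor II (Serpind1) fell (-1.46 ± 0.30), and protein S (Pros1) rose (1.33 ± 0.34). Without the 7 doubted arrays 18 members fell, with array weights 19, and with the poly-A controls as a covariate 7.

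Of 16 genes with higher expression in male than female liver 4 fell and 0 rose (limma; 6 and 1 at an unadjusted p under 0.05), with a median of -0.64. These were Hsd3b5, Keg1 (-5.03 ± 0.99), Cyp2u1 (-1.26 ± 0.26) and the fatty acid elongase gene Elovl3 (-2.72 ± 0.96, lost without any 1 of 12-hour replicates 1 and 2 and control replicates 1 and 4, adjusted p up to 0.0794), whereas the urinary protein gene Mup3 was at -0.02. Without the 7 doubted arrays 8 fell, and from the compared groups alone 11. The doubted arrays include 24-hour replicates 9, 10 and 11, whose male label was in doubt. Growth hormone, whose pulses set the male pattern, acts through Ghr and Stat5b. Ghr read 10.74, 10.43, 10.15 and 10.51 at 12 hours and 11.73, 12.08, 11.97, 12.19 and 11.94 in the controls, and Stat5b changed by -1.24 ± 0.20. Igfals, which stabilises circulating IGF1, read 7.22, 7.06, 6.78 and 6.55 against 8.52, 8.86, 8.45, 9.05 and 9.36. In both Ghr and Igfals all 12-hour arrays were below all controls, while Igf1 rose slightly (0.37 ± 0.10). In all 9 of 17 genes of this axis fell and 2 rose.

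Pericentral Wnt targets, expressed around the central vein under beta-catenin control, fell in 6 of 17 members and rose in 0 (limma; 8 and 0 at an unadjusted p under 0.05), with a median of -0.59. The secreted Wnt inhibitor gene Notum read 5.27, 4.77, 5.48 and 5.47 at 12 hours and 7.23, 6.68, 7.31, 6.85 and 7.23 in the controls. Lgr5, a receptor for R-spondins, read 4.56, 3.93, 4.29 and 4.12 against 6.03, 6.04, 5.90, 5.75 and 5.29. Neither overlapped. The feedback gene Axin2 fell by 0.85 on the log2 scale, and glutamine synthetase (Glul) was at -0.25 ± 0.36. The number that fell was 3 without 12-hour replicate 4, 3 with the poly-A controls as a covariate, and 10 with array weights, from the compared groups alone or without the 7 doubted arrays. Rspo3, the R-spondin made by central vein endothelium, read 6.46, 6.89, 6.50 and 6.37 against 4.59, 4.91, 5.30, 5.26 and 4.97, but its other probe set was called in the opposite direction. Of 13 periportal genes 4 rose and 4 fell, with Etnppl at -2.15 ± 0.62.

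Of 13 fetal liver genes 2 rose and 0 fell (limma; 3 and 2 at an unadjusted p under 0.05), Afp and the aldolase gene Aldoa (0.65 ± 0.24), the latter a call lost without any 1 of 12-hour replicates 1 and 3 and control replicate 4, adjusted p up to 0.105. The share that rose was 15.4%, against 17.9% of all genes. Afp, alpha-fetoprotein, read 6.65, 6.09, 5.73 and 5.51 at 12 hours, 3.07, 3.12, 2.83, 3.94 and 2.95 in the controls and 3.50, 3.43, 4.27 and 2.71 at 6 hours. Its 12-hour arrays were above all of the others, and 1 of the 5 probe sets of Afp was called.

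The clock genes are given because the labels used here give no time of day. Of 21 members 4 rose and 2 fell, close to the shares of 17.9% and 12.0% among all genes. Per1 read 7.01, 7.14, 7.36 and 7.39 at 12 hours and 5.62, 6.03, 5.69, 5.84 and 6.72 in the controls. Per2 read 6.51, 6.93, 6.69 and 6.47 against 5.30, 4.83, 5.32, 5.07 and 6.01, and Cry1 changed by 1.39 ± 0.40. Nr1d1, the repressor Rev-erb alpha, read 4.16, 4.35, 4.47 and 4.22 against 5.30, 5.30, 6.11, 6.08 and 5.60. All 4 genes were separated between the groups. Without control replicate 1 1 clock gene fell, and without control replicate 3 3. Clock rose by 0.67, a call lost without control replicate 5, adjusted p = 0.0686, and the mean of its probe sets gave -0.08. Dbp, an output gene with a steep daily rhythm, read 9.63, 8.03, 6.60 and 7.81 at 12 hours and 6.57, 6.26, 8.78, 7.96 and 10.94 in the controls, a spread of several log2 units within each group, and Arntl was at -0.77 ± 0.52. Neither of the latter passed the test.

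Cytoskeletal genes rose in 12 of 23 members and fell in 3, with a median of 0.62. The tubulin gene Tubb6 read 8.16, 8.21, 8.60 and 8.16 at 12 hours and 4.85, 4.68, 5.44, 5.24 and 5.36 in the controls. Gamma-actin (Actg1, 2.26 ± 0.30) and Tpm4 (1.78 ± 0.23) rose, and Tubb5 was higher than at 6 hours (2.02 ± 0.33). Tmsb10 fell by 0.74 on the log2 scale (adjusted p = 0.0495), a call lost without any 1 of 12-hour replicates 2, 3 and 4 and control replicates 1, 3, 4 and 5, adjusted p up to 0.132. Tuba4a (-0.71 ± 0.16) and ezrin (Ezr, -0.71 ± 0.15) fell too, though the mean of the probe sets of Ezr gave 0.41.

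Markers of other liver cells changed in few members. Among all genes 17.9% rose and 12.0% fell. Of 15 Kupffer cell markers 4 rose and 1 fell, with the scavenger receptor gene Cd163 at 1.86 ± 0.48, the iron exporter gene Slc40a1 at -1.22 ± 0.36 and the defining marker Clec4f at 0.09. The others that rose were Marco (1.53 ± 0.53, lost without any 1 of 12-hour replicates 2 and 3 and control replicate 3, adjusted p up to 0.0567), C1qb (1.44 ± 0.49, lost without any 1 of 12-hour replicates 1 and 2 and control replicate 1, adjusted p up to 0.102) and Cdh5, listed here and among endothelial markers. Without 12-hour replicate 2 the number that rose was 2. The mean of this list ranged from 5.55 to 5.98 at 12 hours and from 4.82 to 5.46 in the controls. Of 14 monocyte and macrophage markers 2 rose and 0 fell (limma; 2 and 1 at an unadjusted p under 0.05), namely Cd14 and Plac8 (0.83 ± 0.29, lost without any 1 of 12-hour replicates 2 and 4 and control replicate 1, adjusted p up to 0.0755). Cd14, a lipopolysaccharide co-receptor, read 7.04, 7.38, 10.49 and 9.19 at 12 hours and 4.52, 3.47, 3.68, 3.90 and 4.16 in the controls, with 12-hour replicates 3 and 4 well above the other 2.

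Of 14 neutrophil markers 2 rose and 0 fell (limma; 2 and 2 at an unadjusted p under 0.05). The share that rose was 14.3%, where 17.9% of all genes rose and 12.0% fell. S100a8 read 6.39, 6.30, 6.08 and 7.55 against 2.27, 3.30, 2.95, 3.38 and 3.13 and its partner S100a9 changed by 2.93 ± 0.72, whereas the granule genes Mpo (-0.24) and Ltf (-0.30) were near background in both groups. The mean over the neutrophil list ranged from 4.08 to 4.49 at 12 hours and from 3.81 to 4.03 in the controls. However, 9 of the 14 members had a negative change and 5 a positive one, with a median of -0.20. Of 18 lymphocyte markers 2 fell and 0 rose (limma; 6 and 0 at an unadjusted p under 0.05), while 5 fell without control replicate 4 and 0 with the Gapdh difference as a covariate. The share that fell, 11.1%, was below the 12.0% of all genes. The immunoglobulin gene Ighm read 6.08, 5.70, 5.33 and 5.83 at 12 hours and 9.05, 6.98, 8.93, 7.16 and 7.57 in the controls, and Cd22 fell by 0.71 on the log2 scale, a call lost without either of 12-hour replicate 2 and control replicate 1, adjusted p up to 0.0644, while the T cell gene Cd3e was at -0.34. That list ranged from 3.70 to 3.88 at 12 hours and from 3.94 to 4.29 in the controls.

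Of 20 sinusoidal endothelial markers 3 rose and 0 fell (limma; 5 and 1 at an unadjusted p under 0.05). These were shares of 15% and 0%, against 17.9% and 12.0% among all genes. Control replicate 1 was the lowest control for 18 of the 20, against 6010 of 18195 genes in all. The list mean ranged from 5.89 to 6.32 at 12 hours and from 5.19 to 6.06 in the controls. Lyve1 read 7.11, 7.23, 7.80 and 8.47 against 4.09, 4.72, 5.42, 4.89 and 5.31, without overlap. Cdh5 rose by 0.70 ± 0.23, a call lost without either of 12-hour replicate 4 and control replicate 1, adjusted p up to 0.0756, and the defining marker Stab2 was at 0.49. Rspo3 also rose, but its other probe set was called in the opposite direction. Of 19 stellate cell and matrix genes 1 rose, the basement membrane collagen gene Col4a1 (2.21 ± 0.29), and 2 fell, Col3a1 (-1.55 ± 0.50, lost without 12-hour replicate 3, adjusted p = 0.0538) and Colec11 (-0.58 ± 0.21, lost without any 1 of 12-hour replicates 3 and 4 and control replicates 3 and 5, adjusted p up to 0.133). Of 11 biliary markers 1 fell, Cldn4 (-0.57 ± 0.20, lost without any 1 of 12-hour replicates 1 and 2 and control replicate 2, adjusted p up to 0.136), and 0 rose (limma; 1 and 1 at an unadjusted p under 0.05), with Krt19 at -0.23. Of 11 erythroid and megakaryocyte markers 2 fell, Epb42 (-0.49 ± 0.11) and Itga2b (-0.34 ± 0.13, lost without any 1 of 12-hour replicates 1, 2 and 3 and control replicates 1, 3 and 5, adjusted p up to 0.113), and 0 rose (limma; 4 and 0 at an unadjusted p under 0.05). The part of any of these cells in the other results was not tested.

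The 12-hour livers differed from the 6-hour livers in 1706 genes, 9.38% of those tested, with 1345 higher and 361 lower at 12 hours, and from the 48-hour livers in 2143 genes, 11.8%, with 840 higher and 1303 lower. Without 6-hour replicate 3 the former count was 1126, and without 48-hour replicate 3 the latter was 1244. Higher genes made up 78.8% of the calls against 6 hours and 39.2% against 48 hours, but 66.8% and 50.6% after a further quantile normalization. Upp2 had the largest negative difference from 6 hours, -4.95 ± 1.14. It read 9.24, 8.64, 10.15 and 9.80 at 6 hours and 9.39, 9.96, 9.80 and 9.70 at 48 hours, so that only the 12-hour arrays were low among the 4 groups given here. Klkb1 was lower than at both times, with differences of -2.26 from 6 hours (adjusted p = 0.00219) and -2.86 from 48 hours (adjusted p = 0.000138). Abcb11 (-1.67 and -1.86) was likewise lower than at both, the call against 6 hours being lost without 12-hour replicate 3, adjusted p = 0.0635. Profilin 2 (Pfn2, 2.59 ± 0.38) and the tubulin ligase-like gene Ttll1 (3.10 ± 0.27) were among the genes highest against 6 hours, and Susd1 (3.91 ± 0.63), Cd14 (4.20 ± 1.09) and the adipokine gene Serpina12 (2.84 ± 0.53) among those highest against 48 hours.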

How the data were processed

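The deposited series matrix holds RMA values on a log2 scale for 45101 probe sets on 52 arrays, made with oligo 1.52.0 per the submitters' processing notes. The further settings of that step are not given in the sources used here. RMA is known to pull low signals together, which understates changes near background. The values were used as deposited.

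Probe sets with 1 annotated gene (34958) entered the analysis, 932 with several genes and 9211 without a listed gene did not, and 64 were controls. A gene with more than 1 probe set (9011 genes) was read from the set brightest over all arrays, and for 279 called genes another set was called the other way. Symbols were updated through Entrez numbers to RefSeq (GRCm38.p6), which matched 18033 of 18195 genes and left 162 with the annotation's symbol. Groups came from the array titles. limma 3.58.1 in R 4.3.3 was fitted once to 12 group means, with differences of 12 hours from control, 6 hours and 48 hours and Benjamini-Hochberg adjustment over all genes. The scripts were tested on simulated data. Depth has no counterpart here, and the number of arrays limits the precision.

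The comparison, the 48 lists (946 of 1036 genes matched, 90 not) and the tests were chosen with earlier results of these data known, and no list is independent evidence. Named genes were a subset, chosen after their values were seen, of 26 index genes, the 15 highest and 15 lowest changes without overlap, up to 8 called members of a list and up to 3 in its rarer direction, members named as not called, and the 8 highest and 8 lowest against 6 and 48 hours. Canx, Cdk1, Cdk6, Cpt1a, Ern1, Fbp1, Fgb, Klb, Npm1, Pdia6 and Zfp36 lie outside that rule. Promoters were searched for 10 motifs chosen the same way, of which those bearing on the printed windows are given.

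Alternatives were fits with each technical measure as a covariate, with array weights, with a replicate block, with a trended robust prior, of the compared groups alone, without single arrays, without the 40% of genes with the lowest highest group mean, and without 7 doubted arrays (Xist above 6, Gapdh difference above 2 or correlation with the own group below 0), and median centring, quantile normalization, the mean of probe sets, an adjusted p under 0.01 and a change of at least 2-fold.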

Additional observations from a re-analysis of the deposited data

Results flagged for a closer look

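Among the 248 genes described, 36 of 496 groups of 4 or 5 arrays held a value far from the others of its group, and chance alone gives about 1 in 20.

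Control replicate 1 stood below the other 4 controls for Canx (9.02, others 10.29 to 10.75), Creld2 (6.67, others 8.69 to 9.42), Eif4e (5.75, others 7.09 to 7.56), Fbp1 (11.32, others 12.31 to 12.70), Hsp90aa1 (9.42, others 10.53 to 10.93), Klb (6.98), Npm1 (8.46), Odc1 (7.32), Pdia6 (8.84), Psmc1 (7.04) and Pygl (10.36), and above them for Ubtf (8.02, others 7.63 to 7.67). That array also had the largest Gapdh difference, 2.56, whose part in these values was not tested. Control replicate 2 stood above the rest for Saa1 (11.97, others 7.14 to 8.44), Saa2 (10.49, others 6.20 to 6.69), Apcs (10.69, others 9.91 to 10.11) and Nr1i3 (7.48), and control replicate 4 for Afp (3.94) and Oasl1 (6.34). Control replicate 5 stood below the rest for Egr1 (8.77, others 10.59 to 10.81), Elovl3 (9.02, others 11.07 to 11.36), Abcb11 (10.55) and Srxn1 (6.29), and above for Upp2 (11.07, others 9.24 to 9.61).

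Among the 12-hour arrays replicate 1 stood above the other 3 for Hsd3b5 (6.47, others 3.32 to 3.82) and Cdt1 (7.79, others 6.08 to 6.36) and below them for Aass (12.11). Replicate 2 differed for Mpo (3.13), Npm1 (10.38) and Psmd7 (8.19), and replicate 3 for Hspb1 (7.69) and Tubb6 (8.60). Replicate 4 was high for S100a9 (7.47, others 6.17 to 6.35), Mki67 (3.40) and Birc5 (2.91), the latter pair near background, and low for Ier2 (7.14) and Odc1 (10.04).

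The effects at 12 hours and at the other times, tested as differences between the times, were unequal in 1706 genes against 6 hours and 2143 against 48 hours. Outside the comparison, the array labelled 4 weeks, replicate 1, correlated at 0.941 with the 12-hour mean over the 2000 most variable genes, where the control arrays ranged from -0.483 to -0.383. Its label was not tested further.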

How the results depend on the processing

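Against control the called genes numbered 3663 with the hybridization controls as a covariate, 4014 with the poly-A ones, 4329 with Gapdh's 3' to 5' difference, 5430 without the 7 doubted arrays, 6746 from the compared groups alone and 7411 with array weights, and 1634 were also changed at least 2-fold. Leaving out single arrays gave 4312 to 5393. Against 6 hours the counts were 5420 with array weights, 5168 from the groups alone, 2926 without doubted arrays, 916 at an adjusted p under 0.01 and 569 at 2-fold, and single omissions gave 1126 to 1401. Against 48 hours they were 3801, 3303, 3488, 1056 and 784 in the same order, and 1244 to 2120 with single omissions. Of 210 called genes described, 143 kept their call and direction in every alternative against control at this threshold, and 36 lost it without some single array. As covariates, the hybridization measure ended 37 calls, the poly-A measure 38 and the Gapdh measure 41. The mean of probe sets turned Clock to -0.0797, Mtf1 to 0.18, Ezr to 0.41 and Ubtf to 0.53. The causes were not tested.

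Replicate numbers did not pair the samples: deviations of same-numbered arrays correlated at -0.12 to 0.19 between 12 hours and control, -0.21 to -0.09 against 6 hours and -0.04 to 0.15 against 48 hours. With the replicate number as a replicate block 5200 genes were called against control, 1974 against 6 hours and 2429 against 48 hours.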
